A study of Mus musculus with 2 samples.

Results

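The genes described are the receptors, ligands and direct targets of the Notch pathway in cells of young mouse long bone. They are the ligands Dll4, Jag1 and Jag2, the receptors Notch1, Notch2, Notch3 and Notch4, and the target genes Hes1, Hey1 and Hey2. These 10 genes were taken by name out of 28380 genes with counts, and all 10 were present in both count tables. Single-cell RNA sequencing was done on femur and tibia of C57BL/6 mice of both sexes at postnatal day 30, after the epiphysis and most blood cells had been taken away. The Dach1OE group (labelled Apj CreERT2 - Dach1OE +/f) carried Cre that tamoxifen activates, driven by the regulatory sequences of Aplnr (Apj, a gene of capillary ECs), together with a Rosa26 allele that expresses the transcription factor Dach1 after recombination. The Control group (labelled Dach1OE +/f) consisted of Cre-negative littermates with the same allele, and both groups received tamoxifen shortly after birth. Each group is 1 library of 2 pooled mice, so a difference between the libraries cannot be told apart from a difference between mice, preparations or sequencing runs, and no test between groups is possible. The intervals below are 95% intervals of counting error only.

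Notch signalling passes between touching cells. A ligand of the Delta-like or Jagged type on one cell binds a receptor on its neighbour, the receptor is cut, and its intracellular part enters the nucleus, where it acts with the DNA-binding protein Rbpj to switch on genes such as Hes1, Hey1 and Hey2. In blood vessels Dll4 and Notch4 are known from arterial and sprouting endothelial cells (ECs), Notch3 is the receptor of mural cells, and Hey1 and Hey2 belong to the arterial programme.

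Of 28720 Control and 32028 Dach1OE cells, 26466 and 29317 passed the limits of 500 to 6000 detected genes and under 25% mitochondrial molecules, with medians of 3793.5 and 4055 unique molecular identifiers (UMIs, one per captured RNA molecule). In ECs, Dach1 was at 5.04 counts per 1000000 UMIs (CPM) in Control and at 206 CPM in Dach1OE. The libraries shared 1049 cell barcodes, and Scrublet marked 6.52% and 6.64% of cells as possible doublets. Cells were grouped by clustering without the 10 genes, and clusters were named by marker genes as bone marrow ECs (bmECs, sinusoidal), metaphyseal ECs (mpECs), arterial ECs (aECs), remodelling ECs (rECs), proliferating ECs (pECs), tip ECs and lymphatic ECs, as smooth muscle cells (SMCs) and pericytes, and as kinds of bone mesenchymal stromal cell (BMSC), all in the sense of cells like these types. The stromal classes used below are dpMSC (diaphyseal, marked by Lepr and Cxcl12), mpMSC (metaphyseal), SC (marked by Fabp5 and Mmp9), osteoblasts, osteocytes and pBMSC. EC cluster 2, led by Scgb3a1, Igfbp5, Dach1 and Clca3a1, held 147 Control and 2826 Dach1OE cells, and it may be that library and not a type, so it was left unnamed. The pBMSC and pEC classes were named by genes of cell division. The rEC class carried 4 rEC markers but also 5 of the listed BMSC markers. The tip EC class carried 3 tip EC, 3 mpEC and 3 aEC markers, so both names are loose.

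The annotation on GRCm38 places Dll4 at chr2:119325784-119335962 on the plus strand, Jag1 at chr2:137081456-137116644 and Jag2 at chr12:112907819-112929776, both on the minus strand. The receptors lie at chr2:26457903-26516663 (Notch1, minus), chr3:98013527-98150361 (Notch2, plus), chr17:32120820-32166852 (Notch3, minus) and chr17:34564268-34588503 (Notch4, plus). The targets lie at chr16:30064384-30067796 (Hes1, plus), chr3:8663359-8667256 (Hey1, minus) and chr10:30832359-30842801 (Hey2, minus). Jag1, Hes1, Hey1 and Hey2 overlapped no other annotated gene. The other 6 did, among them Notch3 with the antisense gene Gm17276 and Dll4 with Gm14207 on the opposite strand, and since intronic reads were counted and the use of strand is not given in the sources used here, reads of such pairs may be mixed.

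RefSeq promoters on GRCm38.p6 were matched for 8 of the 10 genes (not for Hes1 and Hey1). Shown are the 250 bases before the RefSeq start of Dll4 and Notch4, whose levels rose and fell together over the cell classes, and of the target Hey2, each 5′ to 3′ on the strand of its gene. Capitals mark the letters TGGGAA, the core bound by Rbpj, or CACGCG, which Hey proteins bind, on either strand. The windows are chr2:119325534-119325783, plus (Dll4), chr17:34564045-34564294, plus (Notch4) and chr10:30842784-30843033, minus (Hey2). The RefSeq starts differ from the gene bounds above for Notch4 and Hey2, whose windows overlap the annotated gene by 27 and 18 bases.
Dll4: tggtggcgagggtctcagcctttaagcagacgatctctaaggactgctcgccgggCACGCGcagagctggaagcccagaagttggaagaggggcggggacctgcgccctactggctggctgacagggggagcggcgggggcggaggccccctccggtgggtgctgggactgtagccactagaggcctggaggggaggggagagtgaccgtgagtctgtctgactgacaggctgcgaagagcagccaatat
Notch4: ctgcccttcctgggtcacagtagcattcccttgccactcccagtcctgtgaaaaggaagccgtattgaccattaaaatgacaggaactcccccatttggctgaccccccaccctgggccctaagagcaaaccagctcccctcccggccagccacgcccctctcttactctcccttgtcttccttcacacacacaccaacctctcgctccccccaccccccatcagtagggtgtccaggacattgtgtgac
Hey2: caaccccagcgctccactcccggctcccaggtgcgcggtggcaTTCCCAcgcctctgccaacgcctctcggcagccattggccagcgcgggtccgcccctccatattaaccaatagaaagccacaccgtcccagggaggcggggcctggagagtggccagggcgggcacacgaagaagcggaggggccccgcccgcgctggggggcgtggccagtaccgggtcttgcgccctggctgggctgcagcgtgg
The Dll4 window held CACGCG at 195 bases before the start, and the Hey2 window held TGGGAA on the opposite strand at 207 bases before it. Hey2 had a second TGGGAA on its own strand that begins 3 bases before the start and so runs past the printed bases. The Notch4 window held neither. Among 32851 promoter windows from 250 bases before to 50 after the start, 25.6% held TGGGAA, 9.27% held CACGCG and 7.15% held the E-box CACGTG, so a match in one of these windows is common and is no more than a description.

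The plot of levels by class shows where each gene was found. Ligand Dll4 and receptor Notch4 were found in ECs, Notch3 in mural cells and some stromal cells, and Jag1 in both aECs and mural cells. Hey1 had high levels in aECs and also in stromal cells, whereas Hey2 was found mainly in SMCs, pericytes and SC cells.

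**Figure D1:**
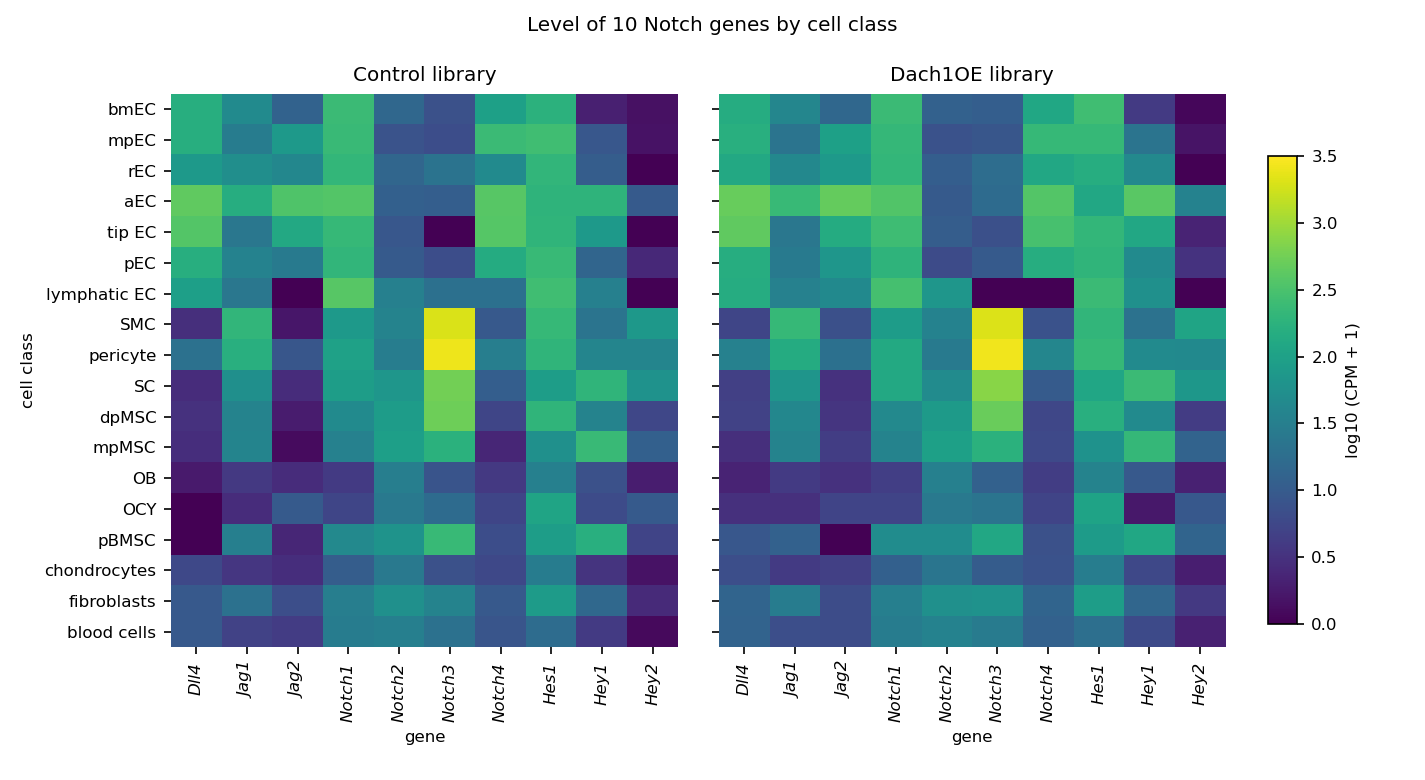
Levels of the 10 Notch genes in each named cell class (rows), drawn as the colour scale of log10 of CPM plus 1, with genes as columns and 1 panel per library. Dll4 and Notch4 stand out in EC classes, with 446 and 387 CPM in Control aECs, and Notch3 in mural classes, with 2540.0 CPM in Control pericytes.

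Dll4, the Delta-like ligand of arterial and sprouting ECs, was at 446 CPM (exact Poisson interval 412 to 483) in Control aECs and 364 CPM in tip ECs. Control pECs (156 CPM), mpECs (155) and bmECs (154) did not differ beyond counting error, and lymphatic ECs (93.1) and rECs (74.8) came below them. In Dach1OE the top was the same, with 482 CPM (461 to 503) in aECs and 436 CPM in tip ECs. In neither library did aECs and tip ECs differ beyond counting error. Pericytes, the next class in Control, had 19.2 CPM. Dll4 was thus counted in every EC subtype, and its level in aECs was 2.93-fold that of all other ECs in Control and 2.56-fold in Dach1OE.

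Jag2, a Jagged-type ligand, had a steeper order. Control aECs were at 339 CPM (309 to 371), tip ECs at 129, mpECs at 73.8, rECs at 40.3, pECs at 26.5 and bmECs at 11.7, each step larger than counting error. Dach1OE aECs were at 475 CPM (454 to 496) and tip ECs at 141. The gene was 13.7-fold (Control) and 9.94-fold (Dach1OE) higher in aECs than in other ECs.

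Jag1, the other Jagged-type ligand, was counted in ECs and mural cells alike. Its highest Control level was in SMCs (198 CPM), followed by pericytes (162) and aECs (149.9), which did not differ from each other beyond counting error. Control SC cells (53.5), rECs (52.6) and bmECs (45.6) came next. In Dach1OE, aECs (225 CPM) and SMCs (222) shared the top, and pericytes had 141 CPM. The ratio of aECs to other ECs was 3.56-fold in Control and 8.63-fold in Dach1OE.

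Among the receptors, Notch1, the main Notch receptor of blood vessels, varied little over the EC subtypes. Control levels ran from 198 CPM in pECs to 366 in aECs and 387 in lymphatic ECs, and Dach1OE levels of the blood EC subtypes from 188 in pECs to 352 in aECs. The aECs were at 1.54-fold (Control) and 1.46-fold (Dach1OE) of other ECs, under the 2-fold limit used for that comparison. Mural cells had 89.5 CPM in Control and 113 CPM in Dach1OE.

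Notch4, a receptor largely limited to endothelium, was at 387 CPM in Control aECs and 379 CPM in tip ECs, which did not differ beyond counting error. In the other named blood EC subtypes its level then fell through mpECs (243 CPM), pECs (142) and bmECs (97.2) to rECs (46.9). Lymphatic ECs had 4 UMIs (18.6 CPM) in Control and 0 in Dach1OE. In Dach1OE the order began with aECs (364), tip ECs (303) and mpECs (218), and pECs (148), rECs (126) and bmECs (119.7) followed, with no step between these last neighbours beyond counting error. The level in rECs was thus below that of bmECs in Control and not in Dach1OE.

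Notch3, the receptor of mural cells, was at 2540.0 CPM in Control pericytes and 1991 CPM in SMCs, and at 2679 and 2079 CPM in Dach1OE. Stromal SC cells (572 and 754 CPM) and dpMSCs (528 and 502 CPM) came after them, above the pBMSCs (226 and 126 CPM) and mpMSCs (171 and 169 CPM). Osteoblasts had 7.12 and 11.2 CPM. Pericytes were above SMCs and SMCs above SC cells beyond counting error in each library, whereas SC cells were above dpMSCs beyond it in Dach1OE and not in Control. ECs had little of it. When each cell was thinned to 1000 UMIs, 81.1% of Control mural cells (exact binomial interval 78.9% to 83.2%) and 83.2% of those of Dach1OE (81.7% to 84.7%) had a Notch3 UMI. The share of ECs was 0.769% in Control (0.594% to 0.979%) and 1.15% in Dach1OE (0.938% to 1.40%). This is below the 1.504% and 2.28% of blood cells, of which Scrublet marked 11.8% and 10.8%. It is above the 0.579% and 0.980% of chondrocytes, but the intervals overlap. Blood cells should lack the gene, and by share ECs could not be told from chondrocytes. Notch3 in ECs was thus not told apart from background, and the part of free RNA or doublets was not tested. The median depth was 2720.0 and 2744 UMIs in ECs and 4982 and 4923 UMIs in blood cells, and without thinning 2.08% and 2.91% of ECs and 4.999% and 6.83% of blood cells had a Notch3 UMI.

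Notch2, a receptor also used by blood and bone cells, was highest in Control mpMSCs (94.3 CPM) and dpMSCs (84.0 CPM). In EC subtypes other than lymphatic ECs it was between 6.79 and 13.7 CPM in Control.

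Hey1, a target that represses transcription, was at 236 CPM in Control mpMSCs, 197 in SC cells, 186 in aECs and 158 in pBMSCs. The mpMSCs were above SC cells beyond counting error, and the later neighbours in this order did not differ beyond it. Tip ECs followed with 74.3 CPM. In the other blood EC subtypes it was much lower, from 12.99 CPM in pECs to 1.05 CPM in bmECs. The level in bmECs was under the 2.96 CPM of blood cells and was not told apart from background. In Dach1OE the aECs stood first with 401 CPM, above SC cells (239) and mpMSCs (213). Relative to other ECs, aECs held 43.2-fold more in Control and 20.8-fold more in Dach1OE.

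Hey2, its paralogue, was at 71.4 CPM in Control SMCs, 59.0 in SC cells and 38.4 in pericytes. In ECs it was sparse. The 25 UMIs of Control ECs and the 164 UMIs of Dach1OE ECs gave 0.874 and 5.64 CPM, and aECs held 12 and 151 of them.

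Hes1, the most widely expressed of the targets, was between 178 CPM (bmECs) and 265 CPM (mpECs) in the blood EC subtypes of Control. Osteocytes had 108 CPM and osteoblasts 32.8 CPM. In Control its level in aECs was 0.95-fold that of other ECs, and in Dach1OE 0.535-fold, with 125 CPM in aECs against 234 CPM in other ECs. Thus Hes1, unlike Hey1 and Hey2, was not higher in aECs.

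In all, 6 of the 10 genes were at 2-fold or more in aECs over other ECs in each library, and the same genes in both: Dll4, Notch4, Jag1, Jag2, Hey1 and Hey2. Among all genes tested, 8.19% in Control and 7.32% in Dach1OE were at or past 2-fold. The aEC class was 1 cluster that carried 7 of the 8 aEC markers listed, among them Sema3g, Gja4 and Gja5. The log2 ratios of aECs to other ECs were 1.65 (1.52 to 1.78) for Notch4 and 1.55 (1.43 to 1.68) for Dll4 in Control, and 1.12 (1.03 to 1.20) and 1.36 (1.28 to 1.43) in Dach1OE. Jag1 had the opposite order, with 1.83 (1.61 to 2.05) in Control and 3.11 (2.96 to 3.25) in Dach1OE.

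**Figure D2:**
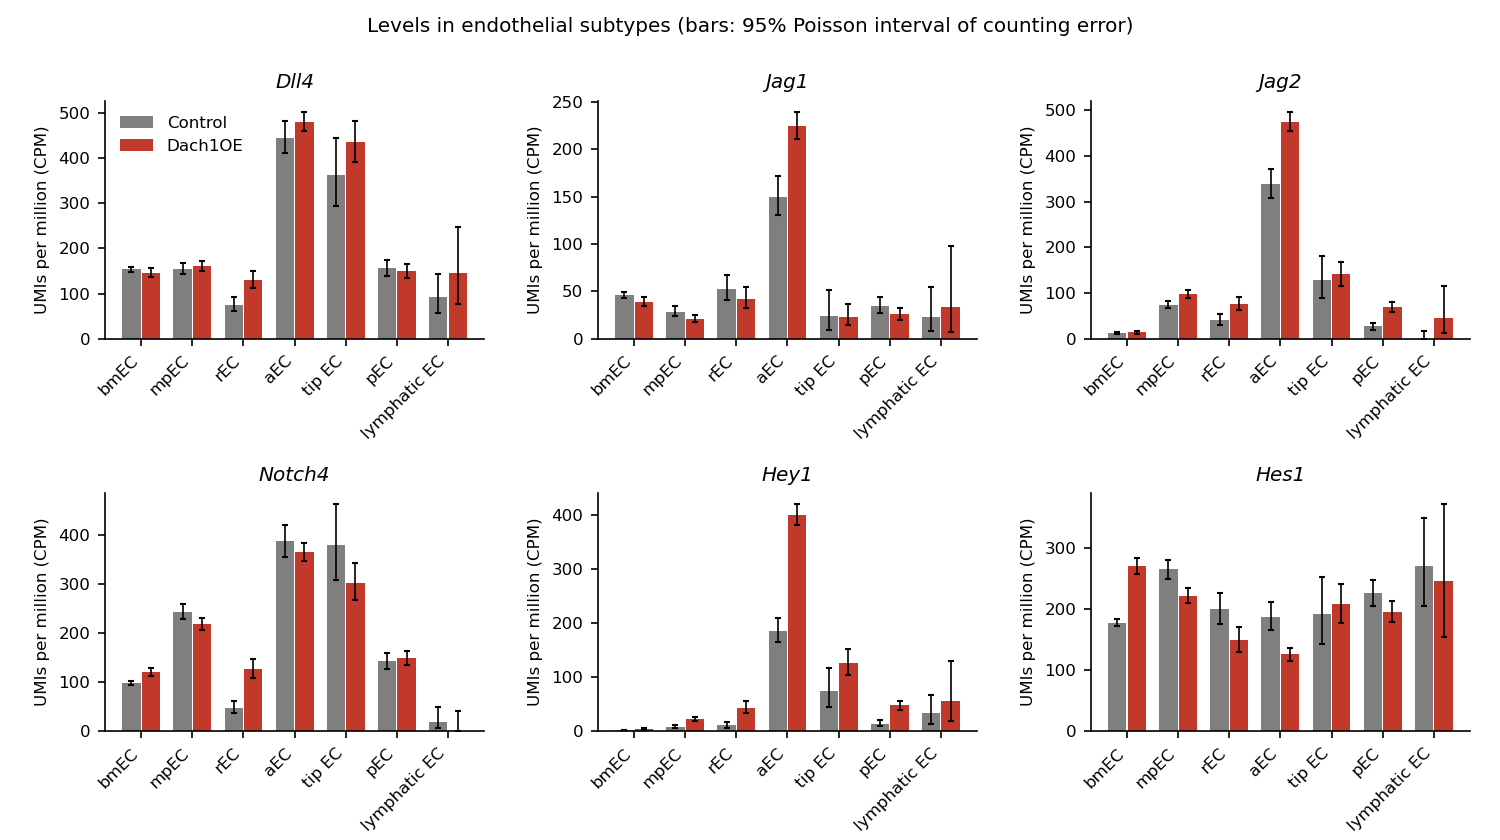
Levels of Dll4, Jag1, Jag2, Notch4, Hey1 and Hes1 in the EC subtypes (x axis) of the Control (grey) and Dach1OE (red) libraries, as bars of CPM of summed UMIs with exact Poisson 95% intervals of counting error. In both libraries the bars of aECs and tip ECs are the tallest for Dll4 (446 and 364 CPM in Control) and Notch4, and that of aECs for Jag1, Jag2 and Hey1.

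The study set Notch genes of Dach1OE ECs beside those of Control ECs. Its text names Notch4 and Dll4 from these same cells, so their direction here is not independent evidence. For Dll4 the study also reports stronger immunostaining in Dach1OE vessels. It further reports fewer arteries and type R (rEC) vessels after Dll4 was deleted in ECs. The values below are of RNA only. The ECs compared were 8600 Control and 8862 Dach1OE cells. A further 509 and 655 cells of 2 EC subclusters, led by Malat1 and by the cartilage gene Snorc, were left out, because more of their leading genes were markers of other cell types than of ECs. With those cells 4 of the 10 genes were again past 1.5-fold, where 9.61% of all genes were past it upward and 9.14% downward. Over the ECs compared, the largest ratios belonged to the targets Hey1 and Hey2 and the ligand Jag2. Hey1 was at 13.1 CPM in Control and 75.9 CPM in Dach1OE, a log2 ratio of 2.53 (2.37 to 2.70). Hey2 was at 0.874 and 5.64 CPM, a log2 ratio of 2.69 (2.08 to 3.36). Jag2 was at 40.04 and 111 CPM, a log2 ratio of 1.47 (1.38 to 1.57). The Dach1OE library was the higher one for all 3. The ligand Jag1 was closer, at 47.3 and 55.6 CPM.

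The receptors differed less. Notch1 was at 244 CPM in Control and 257 CPM in Dach1OE. Notch2 was at 12.3 and 9.53 CPM, the only one of the 10 below its Control level, by 0.37 on the log2 scale. Notch3, not told apart from background in ECs, was at 7.10 and 10.8 CPM, only just past 1.5-fold. Notch4 (136 and 197 CPM) and its ligand Dll4 (166 and 231 CPM) were both higher in Dach1OE but under 1.5-fold, as was Hes1 (197 and 218 CPM). With called meaning past 1.5-fold and at least 20 UMIs in both libraries together, 4 of the 10 genes were called higher in Dach1OE ECs (Notch3, Jag2, Hey1, Hey2) and 0 lower, where 9.53% of 15631 genes were called higher and 9.17% lower. The median log2 ratio of the 10 was 0.51, beside 0.03 over all genes tested.

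**Figure D3:**
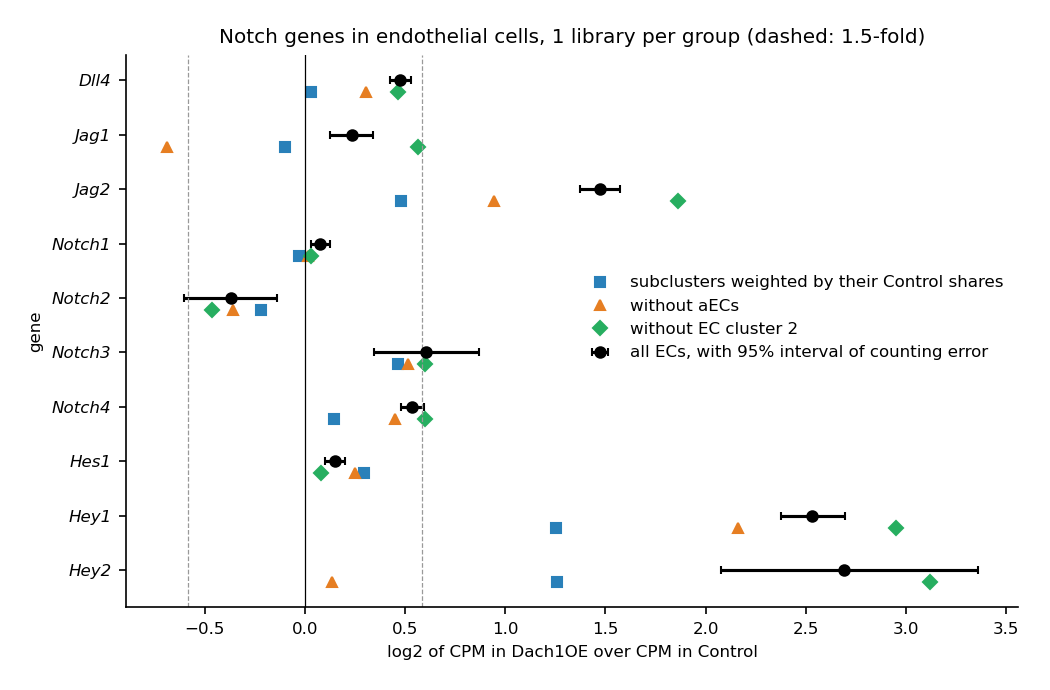
Log2 ratio of Dach1OE over Control for the 10 Notch genes in ECs. Black points are all ECs with 95% intervals of counting error, and coloured marks give the ratio with subclusters weighted by their Control shares, without aECs and without EC cluster 2, with dashed lines at 1.5-fold. Over all ECs Hey2 (2.69), Hey1 (2.53) and Jag2 (1.47) lie farthest to the right, and with Control shares Dll4 (0.03) and Jag1 (-0.10) lie near 0.

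The EC subtypes had different shares in the libraries, which moved with these ratios. The aECs were 4.85% of Control ECs (exact binomial interval 4.404% to 5.32%) and 13.97% of Dach1OE ECs (13.3% to 14.7%). The bmECs were 64.2% and 19.995%, and EC cluster 2 was 1.71% and 31.9%. The aECs held 13.02% (12.1% to 14.0%) of the EC UMIs of Dll4 in Control and 30.9% (29.8% to 32.0%) in Dach1OE. For Notch4 they held 13.8% and 27.4%, for Jag2 41.0% and 63.4%, and for Jag1 15.4% and 60.06%. For the targets they held 68.8% and 78.4% of Hey1, 48.0% and 92.1% of Hey2, and 4.62% and 8.53% of Hes1. The summed level of the 8 aEC markers was 489 CPM in Control ECs and 1243 CPM in Dach1OE ECs, with 6 of them past 1.5-fold and none at 0.

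Ratios were then set to the Control shares of the EC subclusters. Dll4 came to 0.03, Notch4 to 0.14 and Jag1 to -0.10 on the log2 scale, so that these 3 were near equal. Jag2 came to 0.48, under 1.5-fold, while Hey1 (1.25) and Hey2 (1.26) were past it. These shares give bmECs most of the weight and EC cluster 2 (147 Control and 2826 Dach1OE cells) little. Over 15 alternatives the log2 ratio of Dll4 in ECs ran from 0.03, with these shares, to 0.50. When aECs were left out, Hey1 (2.16), Jag2 (0.94), Notch4 (0.45) and Dll4 (0.31) were still higher in Dach1OE, but Jag1 turned to -0.69, past 1.5-fold downward. Hey2 came to 0.14, from 13 UMIs in each library, too few to tell whether it differed. When EC cluster 2 was left out, Jag2 came to 1.86, Hey1 to 2.95, Notch4 to 0.60 and Jag1 to 0.57, and Hes1 to 0.08. These 2 omissions were chosen after the data had been seen.

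Within aECs (417 Control and 1238 Dach1OE cells) the arterial receptor and ligand, taken over the whole class, had ratios under 1.5-fold with intervals that span 0. Dll4 was at 446 CPM in Control and 482 CPM in Dach1OE, a log2 ratio of 0.11 (-0.02 to 0.24). Notch4 was at 387 and 364 CPM, a log2 ratio of -0.09 (-0.23 to 0.06). The Jagged ligands and Hey targets were higher in Dach1OE over this class as a whole, the ligands under 1.5-fold. Jag1 was at 149.9 and 225 CPM (0.58, from 0.37 to 0.81) and Jag2 at 339 and 475 CPM (0.49, from 0.34 to 0.64). Without integration of the libraries before clustering they came to 0.84 and 0.60, past it. Hey1 was at 186 and 401 CPM (1.108, from 0.92 to 1.30), and Hey2 at 8.65 and 35.0 CPM (2.02, from 1.17 to 3.001). Hes1 moved the other way, with 187 CPM in Control aECs and 125 CPM in those of Dach1OE (-0.58, from -0.80 to -0.36). Notch3 (10.09 and 15.8 CPM) passed 1.5-fold but its interval spans 0. By the 1.5-fold rule 3 of 10 genes (Hey1, Hey2 and Notch3) were called higher and 0 lower in aECs, where 13.8% of genes were called higher and 10.3% lower.

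The aECs of the libraries were not evenly spread over finer clusters. At a resolution of 0.8 the class split into cluster 7, with Gper1 and Slc1a3 among its leading genes and 89 Control and 771 Dach1OE cells, and cluster 8, led by Car7, Cthrc1 and St8sia6, with 328 and 469 cells. Hey2 was nearly all in cluster 7, at 61.2 CPM (11 UMIs) in Control and 60.003 CPM (146 UMIs) in Dach1OE, a log2 ratio of -0.03 (-0.91 to 1.01). In cluster 8 it had 1 and 5 UMIs. At these few UMIs the interval in cluster 7 reaches past 1.5-fold in both directions. Jag1 was at 439 and 299.2 CPM in cluster 7 (-0.55, from -0.89 to -0.20), the direction opposite to that of the class, and at 107 and 128 CPM in cluster 8 (0.26, from -0.05 to 0.58). Jag2 had ratios of -0.11 (-0.40 to 0.18) and 0.30 (0.11 to 0.48). For Dll4 the ratios were 0.20 (-0.14 to 0.57) in cluster 7 and 0.20 (0.05 to 0.36) in cluster 8, and for Notch4 they were 0.03 (-0.34 to 0.42) and -0.05 (-0.22 to 0.12). Hey1 was higher in Dach1OE in both clusters, at 245 and 374 CPM (0.61, from 0.18 to 1.08) and at 177 and 432 CPM (1.29, from 1.07 to 1.51). Hes1 was lower in cluster 7, at 206 and 91.6 CPM (-1.17, from -1.67 to -0.62), and its interval spans 0 in cluster 8 (-0.14). Without integration the split was 66 and 784 cells against 340 and 158. The 2 clusters together held fewer Dach1OE cells than the aEC class of 1238, so some cells of the class lay elsewhere. In the first of these clusters Dll4 was past 1.5-fold, at 224 CPM in Control (30 UMIs) and 453 CPM in Dach1OE (1.02, from 0.49 to 1.59), and in the other it was at 475 and 513 CPM (0.11, from -0.10 to 0.32). How far Dll4 differed within aECs thus depended on the clustering. Notch4 had ratios of 0.42 (-0.07 to 0.95) and 0.25 (0.03 to 0.47), and Jag1 of -0.48 (-0.87 to -0.06) and 0.44 (0.06 to 0.82). Jag2 had ratios of -0.29 (-0.60 to 0.03) and 0.31 (0.06 to 0.55), so both Jagged ligands again pointed opposite ways in the pair of clusters. Hey1 had ratios of 0.72 (0.20 to 1.28) and 0.28 (-0.05 to 0.60), and Hes1 of -1.51 (-2.02 to -0.96) and 0.34 (0.02 to 0.66). This split was chosen after the data had been seen.

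After thinning to 1000 UMIs, 34.5% of Control aECs (29.9% to 39.3%) and 37.3% of Dach1OE aECs (34.6% to 40.1%) had a Dll4 UMI, against 0.994% and 1.22% of blood cells. For Jag2 the shares of aECs were 29.8% (25.4% to 34.5%) and 40.1% (37.3% to 42.9%), and for Hey1 16.5% (13.02% to 20.5%) and 29.7% (27.1% to 32.4%), against 0.340% and 0.697% (Jag2) and 0.170% and 0.486% (Hey1) of blood cells. Without thinning, 64.3% and 64.5% of aECs had a Dll4 UMI, 59.0% and 70.1% a Jag2 UMI and 40.5% and 60.3% a Hey1 UMI. The median depth of aECs was 2866 and 2904.5 UMIs, and 11 and 43 aECs were too shallow to be thinned.

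In rECs (512 and 521 cells) the receptor Notch4 and the Delta-like ligand were past 1.5-fold higher in Dach1OE. Notch4 was at 46.9 CPM in Control and 126 CPM in Dach1OE, a log2 ratio of 1.43 (0.99 to 1.89). Dll4 was at 74.8 and 129.7 CPM (0.79, from 0.42 to 1.17), Jag2 at 40.3 and 75.3 CPM (0.90, from 0.40 to 1.42) and Hey1 at 9.86 and 42.7 CPM (2.12, from 1.20 to 3.15). At a clustering resolution of 0.8, which left 433 and 317 rECs, Notch4 stayed past 1.5-fold (1.75), and Dll4 (0.51) and Jag2 (0.25) did not. There a subcluster with Car4 and C1qtnf9 among its leading genes, of 80 Control and 203 Dach1OE cells, was named mpEC. It carried 3 mpEC and 2 rEC markers, so the rECs of the libraries may not be evenly spread over finer clusters. Over the whole rEC class Hes1 was lower in Dach1OE, at 199.7 and 149 CPM. In rECs 4 of the 9 genes with enough UMIs were called higher and 0 lower, where 12.5% of genes were called higher and 8.3% lower, and Hey2 had no UMI in either library. The 6 SMC markers summed to 1273 CPM in Control and 1002 CPM in Dach1OE rECs, with 2 of the 6 at 0 in Control, against 292 and 292 CPM in all ECs. Their part in these ratios was not tested.

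In bmECs, the sinusoidal cells (5523 and 1772), Dll4 was at 154 CPM in Control and 147 CPM in Dach1OE, and Notch4 at 97.2 and 119.7 CPM. Hes1 was at 178 and 270.3 CPM, a log2 ratio of 0.60 (0.52 to 0.69), the opposite direction to aECs. The bmECs included a subcluster led by Fos, Zfp36 and Fosb, with 915 Control and 382 Dach1OE cells and a median of 4264 UMIs. Its part in the Hes1 ratio was not tested. The size of the Hes1 ratio depended on the clustering, with 0.57 at a resolution of 0.2, 0.84 at 0.8 and 0.19 without integration. At 0.8 the largest bmEC subcluster, of 2034 and 593 cells, had been left out because pericyte markers were among its leading genes, and with it the ratio was 0.73 (0.64 to 0.82). At the main resolution of 0.4, 3 of 9 genes were called higher in bmECs and 0 lower, where 5.58% of genes were called higher and 6.58% lower. They were Hes1 and, neither told apart from background, Hey1 (20 and 18 UMIs) and Notch3. In mpECs (1467 and 1676 cells) only Hey1 of 9 genes was called higher (7.96 and 21.4 CPM) and 0 lower, where 6.96% were called higher and 7.87% lower. Notch4 (243 and 218 CPM), Jag1 (28.6 and 21.1 CPM) and Hes1 (265 and 221 CPM) were on the lower side in Dach1OE mpECs, and Jag2 (73.8 and 97.1 CPM, a log2 ratio of 0.40, from 0.19 to 0.60) on the higher side.

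Proliferating ECs (388 and 557 cells) had Jag2 at 26.5 and 68.4 CPM, a log2 ratio of 1.37 (0.91 to 1.85), and Hey1 at 12.99 and 47.0 CPM (1.85, from 1.23 to 2.54), while Dll4 (156 and 149 CPM) was even. With Notch3 (11 and 23 UMIs), 3 of 9 genes were called higher, and Notch2 (8.84 and 5.35 CPM) was the 1 called lower, where 8.57% were called higher and 8.07% lower. The intervals of Notch3 and Notch2 span 0 in pECs. Hey1 was thus higher in Dach1OE in mpECs, rECs, aECs, pECs and tip ECs, each time with an interval above 0. At lower levels it was also higher in chondrocytes (2.34 and 4.79 CPM) and blood cells (2.96 and 5.16 CPM). Tip ECs were few (61 and 238 cells), and there Hey1 was at 74.3 and 126 CPM (0.76, from 0.04 to 1.55). EC cluster 2 had Dll4 at 237 CPM, Notch4 at 172 CPM and Hes1 at 246 CPM in Dach1OE, but little Jag2 (18.0 CPM) or Hey1 (5.90 CPM). Its 147 Control cells, with a median of 1498 UMIs, gave 157, 103 and 218 CPM for Dll4, Notch4 and Hes1.

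Whether a Dach1OE EC had a Dach1 UMI moved with some of these genes inside 1 library. Control rECs also held Dach1, at 36.2 CPM against 7.93 in Control aECs and 3.20 in Control bmECs. A Dach1 UMI in an rEC therefore does not by itself mark the Rosa26 allele. In rECs Dll4 was at 204 CPM in the 173 cells with a Dach1 UMI and 84.8 CPM in the 348 without, a log2 ratio of 1.27 (0.82 to 1.72). Jag2 (0.95, from 0.37 to 1.54) and Hey1 (0.98, from 0.19 to 1.77) were likewise higher in rECs with Dach1. In aECs Dll4 (474 and 491 CPM), Jag2 (472 and 478 CPM) and Hey1 (414 and 386 CPM) had ratios whose intervals span 0. Dll4 was also higher with Dach1 in bmECs (0.44, from 0.24 to 0.65) and mpECs (0.36, from 0.17 to 0.55). In other subtypes the Jagged ligands could be lower with Dach1, with Jag2 at 15.3 and 21.6 CPM in EC cluster 2 (-0.50, from -0.99 to -0.0044) and Jag1 at 28.01 and 42.96 CPM in bmECs (-0.62, from -1.12 to -0.14). For Hes1, bmECs with Dach1 had 423 CPM and those without 217 CPM (0.97, from 0.82 to 1.107), and EC cluster 2 had 292 and 184 CPM (0.67, from 0.53 to 0.81). In rECs Hes1 was at 177 and 131 CPM (0.43, from 0.02 to 0.84). The intervals of Hes1 span 0 in mpECs (0.13, from -0.04 to 0.29) and aECs (-0.19, from -0.44 to 0.06). Notch4 was lower with Dach1 in aECs (-0.15, from -0.29 to -0.0025) and higher in bmECs (0.26, from 0.03 to 0.49). Its intervals span 0 in rECs, mpECs and EC cluster 2. Cells with a Dach1 UMI were deeper. The medians were 2662 against 2037 UMIs in rECs, 3632 against 2445.5 in aECs and 4369 against 2711 in bmECs. The part of depth was not tested. At these depths a cell without a Dach1 UMI may still hold Dach1 RNA. In Dach1OE aECs 45.2% of cells had a Dach1 UMI. The intervals that span 0 there thus do not show that these genes are unrelated to Dach1.

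The labels do not tie cells to animals, but both libraries hold cells with Y-linked UMIs and no Xist and cells with the reverse. In ECs these were 2102 and 2064 cells, and 2709 and 2747 cells. The log2 ratio of Dach1OE over Control was 0.50 and 0.44 for Dll4, 0.69 and 0.45 for Notch4, 1.79 and 1.21 for Jag2, 3.25 and 2.39 for Hey1 and 3.07 and 3.26 for Hey2 in the former and the latter. All 5 thus had the same direction in both. These genes were all higher over the whole of the ECs, and the ratios of the others in all ECs are only drawn in the plot. Both sets come from the same library in each group, so they are not replicates. In aECs the ratio of Jag1 was 0.19 in cells with Y-linked UMIs and 0.95 in cells with Xist, and that of Hes1 was 0.15 and -0.63. Cells with neither or both marks are in neither set, and whether the sets differ in these genes was not tested.

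**Figure D4:**
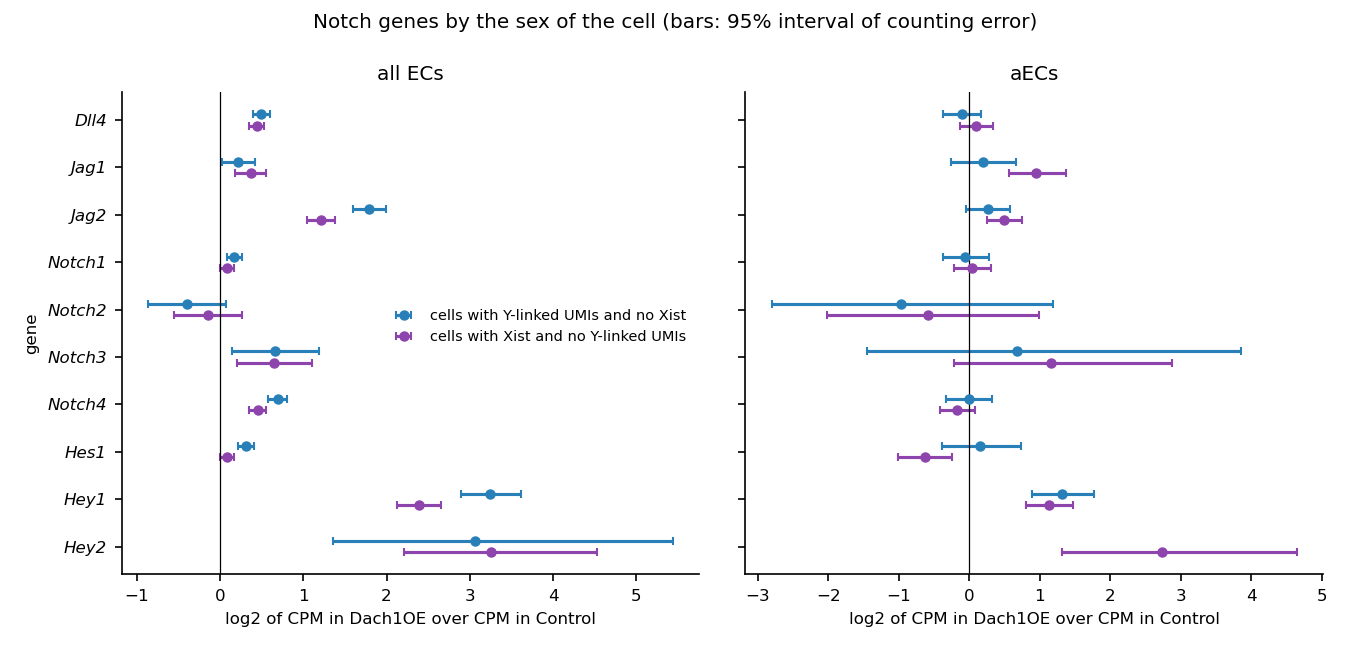
Log2 ratio of Dach1OE over Control for the 10 Notch genes in all ECs (left) and aECs (right), computed apart in cells with Y-linked UMIs and no Xist and in cells with Xist and no Y-linked UMIs, with 95% intervals of counting error. Hey1 (3.25 and 2.39) and Jag2 (1.79 and 1.21) in ECs lie above 0 in both.

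In mural cells (1291 Control and 2630 Dach1OE cells) the receptor Notch3 was near equal, at 2301 CPM in Control and 2426 CPM in Dach1OE, a log2 ratio of 0.08 (0.04 to 0.12). The ligand Jag1 was at 178 and 175 CPM, and the targets Hes1 (206 and 212 CPM) and Hey1 (30.5 and 35.3 CPM) had intervals that span 0. Hey2 was at 52.8 and 72.2 CPM, a log2 ratio of 0.45 (0.20 to 0.71). It was at 71.4 and 109.7 CPM in SMCs (0.62, from 0.30 to 0.95) and at 38.4 and 44.7 CPM in pericytes (0.22, from -0.18 to 0.63). In mural cells with Xist the ratio was 1.01 and in those with Y-linked UMIs 0.02. Cells with neither or both marks are in neither set, and whether the sets differ was not tested.

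Called higher in mural cells were 2 of 10 genes and 0 lower, where 6.48% were called higher and 5.6% lower. They were the EC ligands Dll4, at 11.7 CPM (41 UMIs) and 21.2 CPM (138 UMIs), and Jag2, at 4.56 CPM (16 UMIs) and 13.2 CPM (86 UMIs). After thinning, 0.935% and 1.24% of mural cells had a Dll4 UMI, close to the 0.994% and 1.22% of blood cells, and 0.312% and 0.891% had a Jag2 UMI, against 0.340% and 0.697%. By share, mural cells could thus not be told from blood cells. The shares of chondrocytes were lower, at 0.458% and 0.612% for Dll4 and 0.121% and 0.490% for Jag2, with intervals that overlap those of mural cells. By level mural cells were above the pooled blood cells in Dach1OE, where blood cells had 11.96 CPM of Dll4 (10.8 to 13.3, against 17.8 to 25.03 in mural cells) and 5.42 CPM of Jag2 (4.63 to 6.32, against 10.6 to 16.3). They were not above every blood cluster, since blood cluster 16, with Pf4 and Ppbp among its leading genes, had 27.7 CPM of Dll4 (20.9 to 36.01) and 12.4 CPM of Jag2 (8.01 to 18.3) in Dach1OE. Pericytes alone had 19.2 and 33.5 CPM of Dll4 and 7.58 and 18.3 CPM of Jag2. After thinning they had 1.60% (0.769% to 2.92%) and 2.14% (1.40% to 3.11%) for Dll4, and 0.479% (0.0989% to 1.39%) and 1.31% (0.753% to 2.13%) for Jag2. The 9 EC markers, none at 0, summed to 1303 CPM in Control and 1347 CPM in Dach1OE mural cells, and the 8 aEC markers to 395 and 506 CPM, with 1 of 8 past 1.5-fold. Scrublet marked 12.7% and 13.8% of pericytes but 0.759% and 0.644% of SMCs.

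**Figure D5:**
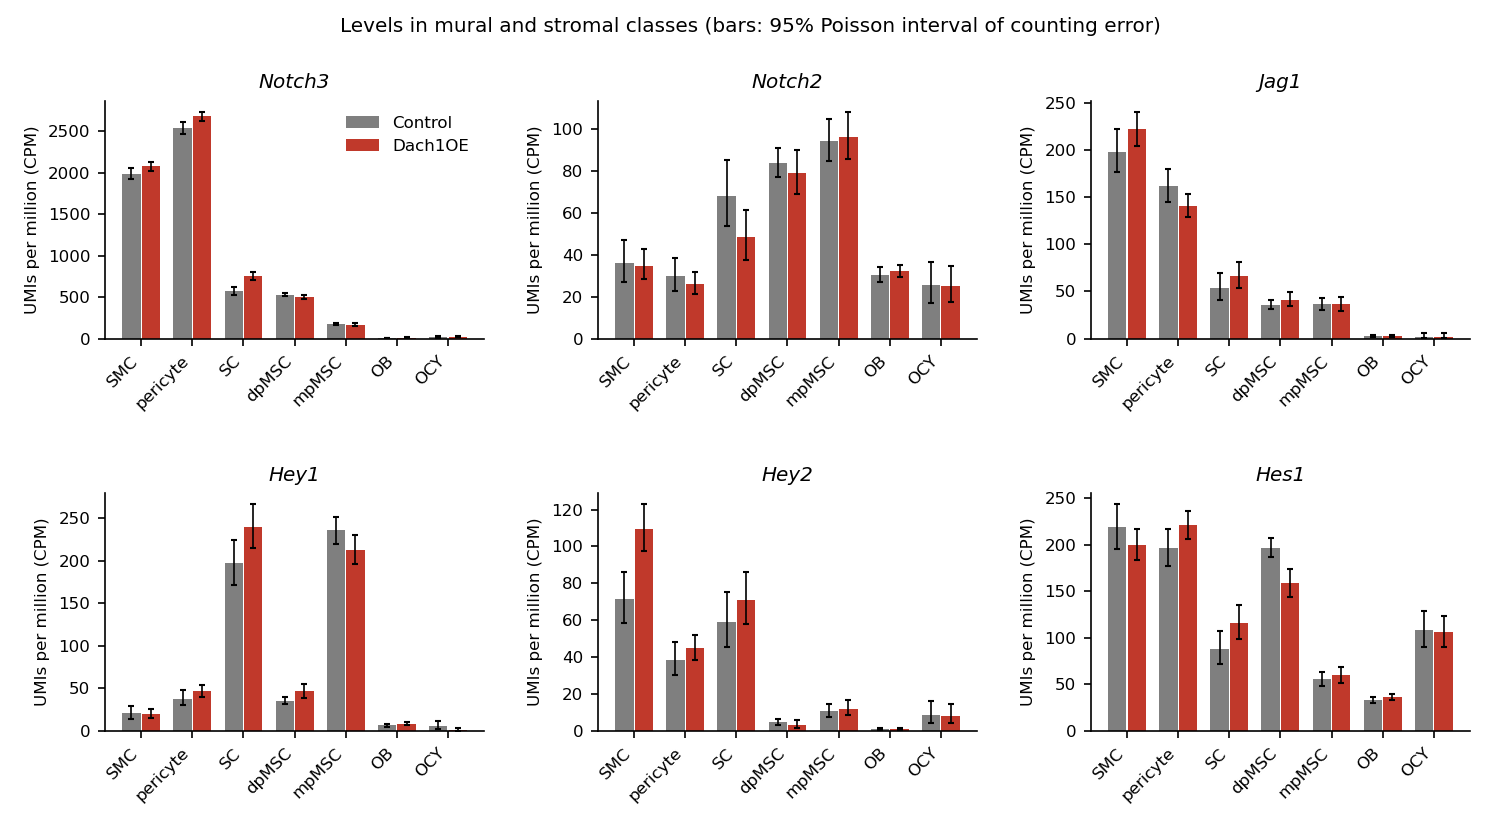
Levels of Notch3, Notch2, Jag1, Hey1, Hey2 and Hes1 in mural and stromal classes (x axis; OB, osteoblasts; OCY, osteocytes) of the Control (grey) and Dach1OE (red) libraries, as bars of CPM of summed UMIs with exact Poisson 95% intervals of counting error. Notch3 falls from pericytes (2540.0 and 2679 CPM) through SMCs, SC cells and dpMSCs to mpMSCs (171 and 169 CPM) in both libraries.

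Over all BMSCs (5706 and 4672 cells) the median log2 ratio of all genes was -0.21, and the ratios below are given without taking it off. Beside the named classes these cells include the unnamed BMSC clusters 5 (277 and 297 cells) and 9 (76 and 52 cells). Cluster 9 was led by Myod1 and Myf5 and had Notch3 at 379 and 402 CPM. Notch3 was at 212 CPM in Control and 133 CPM in Dach1OE, a log2 ratio of -0.67 (-0.74 to -0.61). It was the 1 gene of 10 called lower, and 0 were called higher, where 15.1% of genes were called lower and 2.98% higher. Read relative to the median gene, Notch3 too fell short of 1.5-fold, so that call was then lost. Hes1 was at 90.7 and 62.2 CPM (-0.55, from -0.64 to -0.45), and Hey1, at 61.7 and 53.2 CPM, had the ratio of the median gene, -0.21. The dpMSCs, where Notch3 and Hes1 were high, made up 2439 Control and 985 Dach1OE cells. Within dpMSCs Notch3 was at 528 and 502 CPM (-0.07, from -0.16 to 0.02) and Hes1 at 197 and 158 CPM (-0.31, from -0.47 to -0.16). Within mpMSCs Notch3 (171 and 169 CPM) and Hey1 (236 and 213 CPM) were near equal. In the 265 and 335 SC cells, Notch1 was at 88.9 and 129.99 CPM (0.55, from 0.19 to 0.92) and Notch3 at 572 and 754 CPM (0.40, from 0.26 to 0.54).

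Chondrocytes and blood cells had low levels of the EC genes in both libraries. In chondrocytes Jag2 was at 1.86 CPM in Control and 3.67 CPM in Dach1OE, Hey1 at 2.34 and 4.79 CPM, and Hey2 at 0.504 and 0.962 CPM. These 3 of 10 were called higher and 0 lower, where 3.01% of genes were called higher and 8.58% lower. The same 3 of 10 were called higher and 0 lower in blood cells, at 3.23 and 5.42 CPM (Jag2), 2.96 and 5.16 CPM (Hey1) and 0.231 and 1.08 CPM (Hey2), where 3.36% were called higher and 7.26% lower. The 9 EC markers summed to 251 and 265 CPM in chondrocytes and to 654 and 642 CPM in blood cells, with none past 1.5-fold and none at 0. The 8 aEC markers summed to 38.9 and 51.8 CPM in chondrocytes and 55.0 and 66.7 CPM in blood cells, with 4 past 1.5-fold upward in each. The part of free RNA in these levels was not tested.

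Beyond the 10 genes, 51 further genes of the pathway were listed (other ligands, glycosyltransferases, proteases, nuclear partners and modulators), and 49 had enough UMIs in ECs. Of these, 4 were called higher and 3 lower in Dach1OE, read against the 9.53% and 9.17% of all genes, and their median log2 ratio was -0.004. Nrarp, a feedback inhibitor and itself a Notch target, was at 85.7 CPM in Control and 171 CPM in Dach1OE, a log2 ratio of 0.99 (0.92 to 1.06). The other higher ones were counted in few UMIs, with 11 and 23 for Dlk1, 9 and 15 for Dlk2, and 6 and 21 for Rbpjl. The intervals of Dlk1 (1.04, from -0.05 to 2.22) and Dlk2 (0.71, from -0.57 to 2.09) span 0. The E3 ligase genes Dtx4 (13.2 and 6.98 CPM, -0.92, from -1.17 to -0.67) and Dtx1 (3.46 and 1.27 CPM, -1.44, from -2.03 to -0.89) were lower, as was Hes7 (33 and 18 UMIs). Most UMIs of Dtx1 were in lymphatic ECs (85 and 34 cells), with 89 of 99 in Control and 30 of 37 in Dach1OE, and its level within these cells was 414 and 335 CPM (-0.31, from -0.96 to 0.30). Without lymphatic ECs, 10 and 7 Dtx1 UMIs were left, too few for a call. The remaining 42 did not pass 1.5-fold.

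Over 55 points, each 1 class in 1 library, Dll4 and Notch4 had a Pearson correlation of 0.97 on the log2(CPM + 10) scale, Jag2 and Notch4 of 0.89, and Hey2 and Notch3 of 0.80. Dll4 and Notch2 had -0.66. The points share libraries and related cells, and the values are descriptions. Among 8659 genes that reached 50 CPM, those with the pattern most like Dll4 were Nova2 (0.97), Icam2 (0.97) and Cdh5 (0.97), and those most like Notch4 were Sox17 (0.98), Upp1 (0.97) and Icam2 (0.96). Sox17 is also one of the aEC markers, and Cdh5 encodes the cadherin of EC junctions. Nearest to Notch3 were Heyl (0.94), Ednra (0.92) and Mark1 (0.90), and nearest to Jag1 were Fam13c (0.87), Epas1 (0.85) and Mprip (0.85). Hey1, found in arterial and stromal cells alike, had only looser matches, Nudt4 (0.78), Tmem47 (0.77) and Map4k3 (0.73).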

How the data were processed

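Single cells of femur and tibia were captured on the BD Rhapsody platform with whole-transcriptome amplification, 1 library per group and 2 mice per library. The authors deposited whole-number counts of reads and UMIs per cell and gene, made per the file headers with the BD Rhapsody WTA Analysis Pipeline 1.11 on GRCm38 with GENCODE vM19, intronic reads included (the labels say mm10). The study's methods name another pipeline version. UMIs corrected for sequencing errors in the identifiers (RSEC) were used, 143986818 in Control and 166999989 in Dach1OE, and raw UMIs were an alternative.

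Cells with 500 to 6000 genes and under 25% mitochondrial UMIs were clustered in Seurat 5.3.0 (R 4.3.3) on 2000 variable genes and 30 components, at resolution 0.5 and, within ECs and BMSCs after integration of the libraries, at 0.4. The 10 Notch genes, the wider pathway list, Dach1 and genes of the cell cycle did not enter the clustering. A cluster was named when it carried at least 3 listed markers. Clusters with more than 50% of cells marked by Scrublet (scanpy 1.11.5) were left out of the classes, and marked cells elsewhere were kept. Subclusters with more markers of another cell type than of their own among the 10 leading genes, or with at least 3 blood, muscle or Schwann markers, were left out too, as were BMSC subclusters with at least 5 EC markers. This took out 2 EC and 4 BMSC subclusters. UMIs were summed per class and library and divided by their total (CPM). Intervals are exact Poisson (levels), exact conditional binomial (ratios) and Clopper-Pearson (shares) at 95%, computed in Python 3.11.15 with scipy 1.17.1, and cover counting error only. Since each group is 1 library, neither a test nor a p-value was computed. A gene was called past 1.5-fold (2-fold for aECs over other ECs) with at least 20 UMIs in both groups together. Thinning drew 1000 UMIs per cell. The computation of ratios and intervals was checked on simulated counts with Poisson error only. Those counts had no variation between cells, mice or libraries, so the check says nothing about such variation.

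Named were all 10 genes, of the wider list each gene past 1.5-fold in ECs, and for 5 genes the 3 with the highest correlation over classes with at least 50 cells among genes reaching 50 CPM. The members and the gene lists were chosen with earlier results of these data known. Promoters came from RefSeq and positions from GENCODE vM21, both on GRCm38. Alternatives changed the counts, scaling, weights, cell filters, doublets, gates, sexes and clustering.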

Additional observations from a re-analysis of the deposited data

How the results depend on the processing

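The count of Notch genes past 1.5-fold in ECs was 4 and depended on how the EC subtypes were weighted. It was 2 with equal weights of the EC subclusters and 2 with Control shares of the EC subclusters, in both cases Hey1 and Hey2 without Jag2 and Notch3, and Notch3 turned to -0.041 on the log2 scale with equal weights. Of all genes, 11.3% were called higher and 13.5% lower with equal weights, and 6.30% and 8.44% with Control shares. In the main setting these were 9.53% and 9.17%. Under the other alternatives the count of Notch genes was between 3 and 5, with 5 without EC cluster 2 (Notch4 added) and 3 without aECs (Hey1 and Jag2 higher, Jag1 lower). Of all genes, 11.1% were called higher and 9.84% lower without EC cluster 2, and 8.57% and 8.62% without aECs. In mural cells the count of 2 fell to 1 in cells with Y-linked UMIs and to 1 in cells with Xist, where few UMIs are left. Of 150 recomputed ratios of single genes in ECs, 102 lay within the interval of the reported value. In all, 7 ratios of 5 genes (Notch1, Notch2, Notch3, Jag1 and Hes1) changed sign, and of these genes only Notch3 had been past 1.5-fold. Of 91 ratios within bmECs, rECs and aECs at other resolutions or without integration, chosen after the data had been seen, 79 lay within the interval and 12 outside it, among them Hes1 in bmECs. The count of 6 genes higher in aECs than in other ECs was 6 under each alternative in Dach1OE and in Control, except 7 in Control with the per-cell marker gate. The wider list gave 5 to 7 calls. No paired analysis was possible because each group holds 1 library. Leaving out a replicate was not possible for the same reason. Depth limits Hey2 in ECs, Dll4 and Jag2 in mural cells and Notch2 in rECs and pECs, where few UMIs were counted.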

Other observations

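In fibroblasts (966 Control and 912 Dach1OE cells) Notch3 was at 35.6 CPM in Control and 59.6 CPM in Dach1OE, a log2 ratio of 0.74 (0.44 to 1.05), and Jag1 was at 19.3 and 28.3 CPM (0.55, from 0.13 to 0.98). Hes1 (82.2 and 87.8 CPM) and Notch2 (56.7 and 56.8 CPM) were near equal there. The 7 pericyte markers summed to 484 and 502 CPM in fibroblasts. In osteocytes Hes1 was at 108 and 106 CPM. In ECs, Hes5, another target of the pathway, had 0 UMIs in Control and 10 in Dach1OE, and the ligand gene Dll3 had 0 in both.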
